A study of Mus musculus with 9 samples.

Results

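The mitochondrial carriers of the SLC25 family and the sideroflexins were described in the hippocampus of mice that lack Slc38a3 in endothelial cells. The members are the protein-coding genes whose symbol starts with Slc25a and a digit or is Sfxn1 to Sfxn5, with a mean of at least 10 normalized counts over the 9 libraries. This gave 45 genes, 40 SLC25 carriers and 5 sideroflexins, of 57180 genes in the table and of 17036 that reached the same mean and were tested. The rule did not use the genotype. Of the 53 rows with such a symbol, 7 protein-coding genes lay under the mean and 1 was a pseudogene. The member nearest to the limit from above was Slc25a13, with a mean of 51.6, and the nearest below it was Slc25a21, with a mean of 9.48.

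Bulk RNA-seq was made from whole hippocampus of 11-day-old C57BL6 mice. The first group (cKO, n = 4) carried the Slc38a3 cKO genotype, a deletion restricted to endothelial cells, and the second group (WT, n = 5) was wild type. The labels give neither the Cre driver nor the exons removed, and name no treatment. Females numbered 1 of 4 in cKO (replicate 2) and 4 of 5 in WT (all but replicate 1), and the model therefore had a term for sex. Slc38a3 encodes SNAT3, a sodium-coupled transporter of glutamine.

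SLC25 proteins sit, with few exceptions, in the inner mitochondrial membrane and exchange metabolites between cytosol and matrix: ADP for ATP, phosphate, aspartate for glutamate, citrate for malate, and cofactors. Sideroflexins are a separate family of the same membrane, of which SFXN1 and SFXN3 carry serine. In brain, glutamate enters mitochondria through GC1 (Slc25a22) and GC2 (Slc25a18), and Slc25a18 is known as a gene of astrocytes, the cells that take up synaptic glutamate and return it to neurons as glutamine.

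The libraries held 30803135 to 34034530 reads each, of which the members took 0.342% to 0.360%. Slc38a3 was at 379.8, 405, 308 and 310.2 normalized counts in cKO replicates 1 to 4 and at 3392, 2033, 3514, 3363 and 1804 in WT replicates 1 to 5. It fell in cKO (log2 fold change -2.99 ± 0.221, SE, limma adjusted p = 5.54e-05; two-sided exact permutation p = 0.00794, the smallest for 4 against 5). All 6 hippocampal neuron markers were tested and none passed, with summed levels of 33752 to 39563 in cKO and 38692 to 41936 in WT. Their log2 fold changes were all below 0 (median -0.08), beside 8715 of 17036 genes tested. The female cKO replicate 2 stood apart from its group, with a chi-square per gene of 11.9 to 12.9 in its pairs, against 7.74 to 8.29 between the male cKO libraries and 3.62 to 11.0 between WT libraries.

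The 5′ regions of the 4 members with the smallest p are shown because their separation between the genotypes carries the results below. Each runs from 250 bases before to 50 after the transcription start in RefSeq on GRCm38.p6, an older build than the GRCm39 coordinates of the gene table. It is written 5′ to 3′ on the gene's strand, with capitals for matches on either strand to the motifs named after the sequences.
Slc25a18, chr6:120773518-120773817, plus strand: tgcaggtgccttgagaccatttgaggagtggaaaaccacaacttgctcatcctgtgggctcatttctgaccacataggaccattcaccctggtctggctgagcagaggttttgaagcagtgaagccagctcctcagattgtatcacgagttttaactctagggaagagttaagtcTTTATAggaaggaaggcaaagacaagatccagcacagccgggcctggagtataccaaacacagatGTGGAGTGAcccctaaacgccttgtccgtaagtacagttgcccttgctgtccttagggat
Sfxn5, chr6:85333373-85333672, minus strand: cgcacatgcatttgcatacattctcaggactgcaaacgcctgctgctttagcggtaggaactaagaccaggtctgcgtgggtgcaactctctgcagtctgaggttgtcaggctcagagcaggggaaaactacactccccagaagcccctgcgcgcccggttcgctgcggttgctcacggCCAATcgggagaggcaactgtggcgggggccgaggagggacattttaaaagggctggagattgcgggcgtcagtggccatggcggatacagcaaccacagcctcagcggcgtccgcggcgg
Slc25a1, chr16:17928170-17928469, minus strand: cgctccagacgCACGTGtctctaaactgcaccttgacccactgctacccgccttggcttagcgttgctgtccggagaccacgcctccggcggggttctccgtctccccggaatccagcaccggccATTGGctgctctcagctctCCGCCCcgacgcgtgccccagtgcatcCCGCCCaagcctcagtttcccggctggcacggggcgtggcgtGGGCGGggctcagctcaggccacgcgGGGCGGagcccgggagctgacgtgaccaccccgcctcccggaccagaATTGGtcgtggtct
Slc25a28, chr19:43674832-43675131, minus strand: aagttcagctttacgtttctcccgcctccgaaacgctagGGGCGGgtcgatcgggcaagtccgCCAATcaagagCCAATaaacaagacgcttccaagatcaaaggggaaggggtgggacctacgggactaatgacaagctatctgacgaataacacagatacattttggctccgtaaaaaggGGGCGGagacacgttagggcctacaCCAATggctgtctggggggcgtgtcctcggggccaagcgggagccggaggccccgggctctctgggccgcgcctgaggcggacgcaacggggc
RefSeq entries were matched for 36 of the 45 members, with 45 promoters in all. The Slc25a18 promoter held 1 match to the letters of the TATA box (TATAAA) and 1 to those of the sterol regulatory element (TCACNCCAC). Both lay on the strand opposite to the gene, so neither reads forward in the sequence above. The window held neither a GC nor a CCAAT box. Among the 45 member promoters it was the only one with a TATA box or sterol element match on any strand. Of all 32851 promoters in the reference, 13.6% held a TATA box match and 1.24% a sterol element match. A GC box (GGGCGG) was present in 39 of the 45 (86.7%, against 35.7% of all promoters), including 4 matches in Slc25a1 and 2 in Slc25a28. CCAAT boxes numbered 2 in Slc25a1, 3 in Slc25a28 and 1 in Sfxn5, and were present in 51.1% of member promoters and 37.4% of all. The E box (CACGTG), found in 17.8% of member promoters and 7.15% of all, occurred once in Slc25a1. No match to the NRF1 motif lay in these 4 windows; 4.44% of member promoters and 4.6% of all held one. Overlapping matches were counted apart. Unlike the members, the reference promoters were not filtered by level or gene type, so the shares are not matched. A match describes letters in the window only.

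The comparison of cKO with WT asked which carriers of the mitochondrial membrane differ in hippocampus when endothelial cells lack Slc38a3. Of the 45 members, Sfxn5 rose and Slc25a18 fell, and 43 did not pass (limma-trend with sex as a term, Benjamini-Hochberg adjusted p under 0.05). That is 2 of 45, or 4.44%, beside 0.346% of all genes tested (0.123% higher and 0.223% lower). The members were chosen with earlier results of these data known, so this share is description only. At an unadjusted p under 0.05 there were 4 members, 8.89% of them, against 11.3% of all genes, so by this measure the share of members was below the background. In 5 members (11.1%) the libraries of the 2 groups did not overlap, against 6.29% of all genes (2.58% higher and 3.72% lower). These were Slc25a18 and Slc25a1, lower in cKO, and Sfxn5, Slc25a28 and Slc25a27, higher in cKO. The median log2 fold change of the members was -0.04 and that of all genes -0.0034, with 19 members above 0 and 26 below. Of the 17036 genes tested, 8321 were above 0 and 8715 below.

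**Figure D1:**
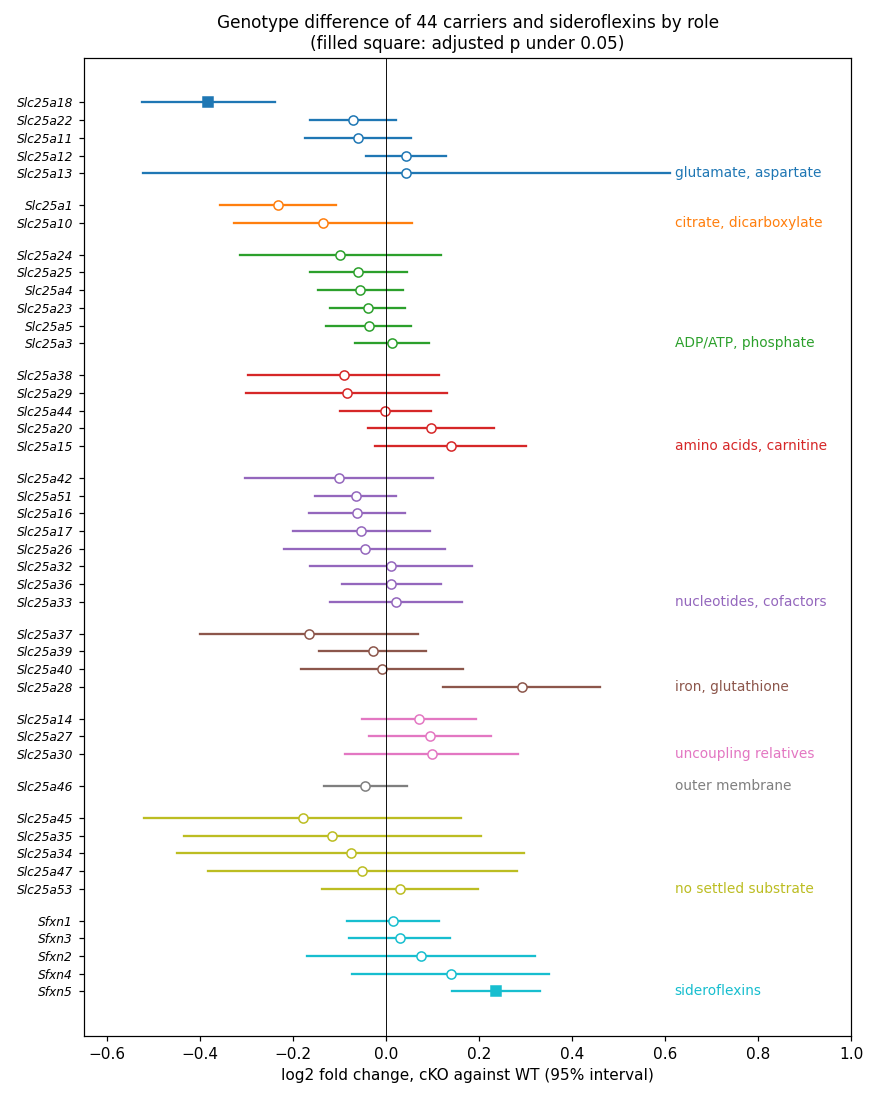
The log2 fold change of 44 of the 45 members (cKO against WT, x axis) is shown with its 95% interval from the limma model, grouped by role. Filled squares mark the 2 members that passed, Slc25a18 at -0.38 and Sfxn5 at 0.24, and most other intervals cross 0 within a narrow range.

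The other 41 members, those with an unadjusted p of at least 0.05, had log2 fold changes from -0.18 to 0.14, and their smallest adjusted p was 0.508. Their precision followed abundance. For the 26 of these with a mean of at least 500 normalized counts, every 95% interval of the cKO to WT ratio lay between 0.811 and 1.17. Over all 45 members, 44 intervals lay within a factor of 1.5 of no difference, the exception being Slc25a13. These intervals state what size of difference the libraries leave room for, and a missed threshold is not evidence of equal levels.

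Among the 5 carriers that move glutamate, aspartate and malate, the astrocyte glutamate carrier Slc25a18 fell and the other 4 did not pass (median -0.06). Slc25a18 (ENSMUSG00000004902, chromosome 6, 120750538 to 120771297) was at 1163, 1307, 1328, 1169.7 and 1160.3 normalized counts in WT replicates 1 to 5 and at 862, 985, 814 and 901 in cKO replicates 1 to 4. Every cKO library lay below every WT library, and the female cKO library was the highest of its group. The unadjusted means were 1225 ± 84.3 in WT (SD, n = 5) and 891 ± 72.5 in cKO (SD, n = 4). With sex as a term the fall was 1.30-fold (log2 fold change -0.38 ± 0.0664, SE, limma adjusted p = 0.0321). The 95% interval of that ratio was 0.695 to 0.847. In whole tissue, fewer cells of a type and less RNA per cell cannot be told apart. The 8 astrocyte markers had summed levels of 153757 to 163005 in cKO and 153235 to 168755 in WT, 1 rose (Gfap), 1 fell (Aqp4) and none was at 0, and their part in the result was not tested.

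The call for Slc25a18 was lost without WT replicate 2 (log2 fold change -0.37, limma adjusted p = 0.0713) or cKO replicate 1 (-0.38, 0.0745). Without WT replicate 1, the only WT male, the sex term leaves 1 cKO female against 4 WT females (-0.33, limma adjusted p = 0.182), and without cKO replicate 2, the only cKO female, 3 cKO males against 1 WT male (-0.44, 0.157). In these 2 fits the lone library is assumed to vary like the others, so they are within-sex differences with 1 library in an arm, here and for every gene below. The gene body of Slc25a18 overlaps that of Atp6v1e1 from 120771265 to 120771297, and the strand setting of the counting is not known here. Atp6v1e1 was at 7032 ± 203 in WT and 7150.2 ± 158 in cKO (limma adjusted p = 0.552).

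Slc25a22 (ENSMUSG00000019082, chromosome 7, 141009656 to 141017805), the other glutamate carrier, was at 9719, 9649, 9713, 9002 and 9137 in WT and at 9054, 9231, 8996 and 8716 in cKO. The groups overlapped, and the 95% interval of its cKO to WT ratio was 0.893 to 1.015 (log2 fold change -0.07 ± 0.0430, limma adjusted p = 0.558). Counted per 100 normalized counts of Slc25a22, Slc25a18 stood at 13.0 ± 0.690 in WT (SD, n = 5, 12.0 to 13.7) and at 9.90 ± 0.745 in cKO (SD, n = 4, 9.04 to 10.7). The ratio, which is not corrected for length and so compares libraries only, did not overlap between the groups. Slc25a18 alone already separated them, and the ratio has no term for sex.

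Slc25a12 and Slc25a13 encode the calcium-regulated aspartate-glutamate exchangers aralar and citrin, and Slc25a11 the oxoglutarate-malate exchanger, the partner of the aspartate-glutamate exchangers in the malate-aspartate shuttle. Slc25a12 was at 5703 ± 138 in WT and 5921 ± 161 in cKO (log2 fold change 0.04 ± 0.0399, limma adjusted p = 0.729). Slc25a11 was at 2515 ± 42.5 and 2349.8 ± 171 (-0.06 ± 0.0528, limma adjusted p = 0.696), with cKO replicates 1 and 4 below every WT library and replicates 2 and 3 within the WT range. Slc25a13 is the lowest member, at 33.9, 67.5, 58.7, 53.2 and 61.3 in WT and 31.8, 49.9, 37.7 and 70.7 in cKO, and its ratio had the widest interval of all members (0.696 to 1.53). Of 6 enzymes of the shuttle and of glutamate breakdown, listed with earlier results of these data known, none passed. The log2 fold change was below 0 for each (median -0.05), beside 8715 of 17036 genes tested (median -0.0034). In 2 of the 6 the groups did not overlap, lower in cKO, beside 3.72% of all genes. Got1, the cytosolic aspartate aminotransferase, was at 6169 ± 165 in WT and 5703 ± 98.1 in cKO (limma adjusted p = 0.411), without overlap, and Glud1, glutamate dehydrogenase, at 11094 ± 190.0 and 10262 ± 487 (limma adjusted p = 0.443).

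**Figure D2:**
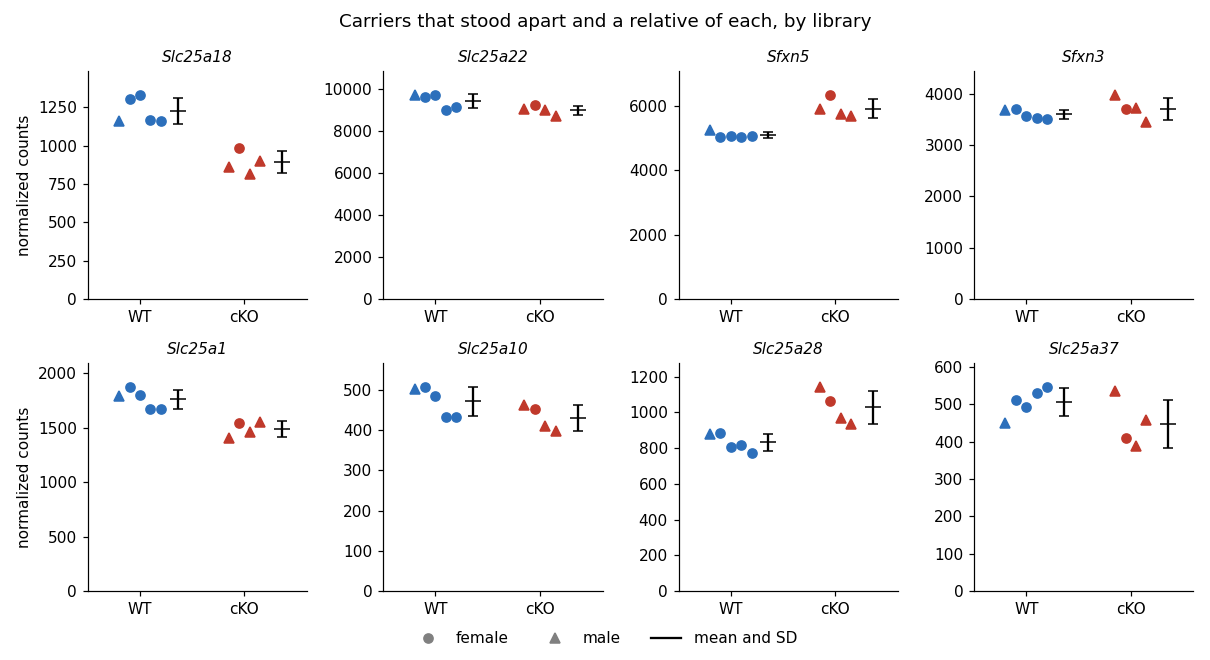
Normalized counts (y axis, from 0) are plotted for 1 point per library, with the mean and SD beside each group; circles are females and triangles males. Slc25a18 and Slc25a1 lie lower and Sfxn5 and Slc25a28 higher in all 4 cKO libraries than in all 5 WT libraries, while a relative of each (Slc25a22, Slc25a10, Sfxn3 and Slc25a37) overlaps between the groups.

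The citrate carrier Slc25a1, which exports citrate for the synthesis of fatty acids and sterols, was lower in all 4 cKO libraries but did not pass. Slc25a1 (ENSMUSG00000003528, chromosome 16, 17743086 to 17746083) was at 1789, 1872, 1803, 1672 and 1674 normalized counts in WT and at 1401, 1542, 1464 and 1550.2 in cKO. The highest cKO library lay below the lowest WT library. The log2 fold change was -0.23 ± 0.0578 (limma adjusted p = 0.153, unadjusted p = 0.00137) and the 95% interval of the ratio 0.781 to 0.928. It passed without the sex term (limma adjusted p = 0.0239; 1.27% of all genes passed) and with DESeq2 (adjusted p = 0.0366; 1.17% of all genes). Slc25a10, the dicarboxylate carrier, was at 472 ± 36.4 in WT and 431 ± 31.8 in cKO (-0.14 ± 0.0892, limma adjusted p = 0.596), with overlap.

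The list of 6 genes for citrate synthesis, export and use was chosen with earlier results of these data known, so its counts are description only. Acly and Acaca fell (2 of 6, beside 0.346% of all genes) and the remaining 4 did not pass. The log2 fold change was below 0 for each of the 6 (median -0.11), beside 8715 of 17036 genes tested (median -0.0034). Acly, which splits exported citrate into acetyl-CoA, fell 1.17-fold with sex as a term (limma adjusted p = 0.0354). Its unadjusted means were 6922 ± 245 in WT (SD, n = 5) and 6018 ± 89.9 in cKO (SD, n = 4). Acaca, the acetyl-CoA carboxylase that starts fatty acid synthesis, fell 1.16-fold in the same model (limma adjusted p = 0.042), with unadjusted means of 3039 ± 111 and 2754 ± 147. Both separated the genotypes in all 9 libraries. The call for Acly was lost without any 1 of WT replicates 2, 4 and 5 and cKO replicates 1 and 3 (log2 fold change -0.23 to -0.22, limma adjusted p = 0.0637 to 0.0816), and in the fits with 1 library in an arm, without WT replicate 1 (-0.16) or cKO replicate 2 (-0.29). That for Acaca was kept without cKO replicate 3 and lost without any other 1 library (limma adjusted p = 0.0574 to 0.105, or to 0.353 with 1 library in an arm), without the sex term (-0.14, limma adjusted p = 0.125), under TMM scaling (limma adjusted p = 0.0506) and with edgeR (adjusted p = 0.0514). Cs, citrate synthase, did not overlap either (with Acly and Acaca 3 of 6, beside 6.29% of all genes), at 12312, 12136, 12111, 12654 and 12563 in WT and 11275, 11441, 11808 and 11564 in cKO, and did not pass (limma adjusted p = 0.322). Fasn was at 17844 ± 678 and 16922 ± 353 (limma adjusted p = 0.407) and Me1 at 3002 ± 125 and 2713 ± 178 (limma adjusted p = 0.453).

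**Figure D3:**
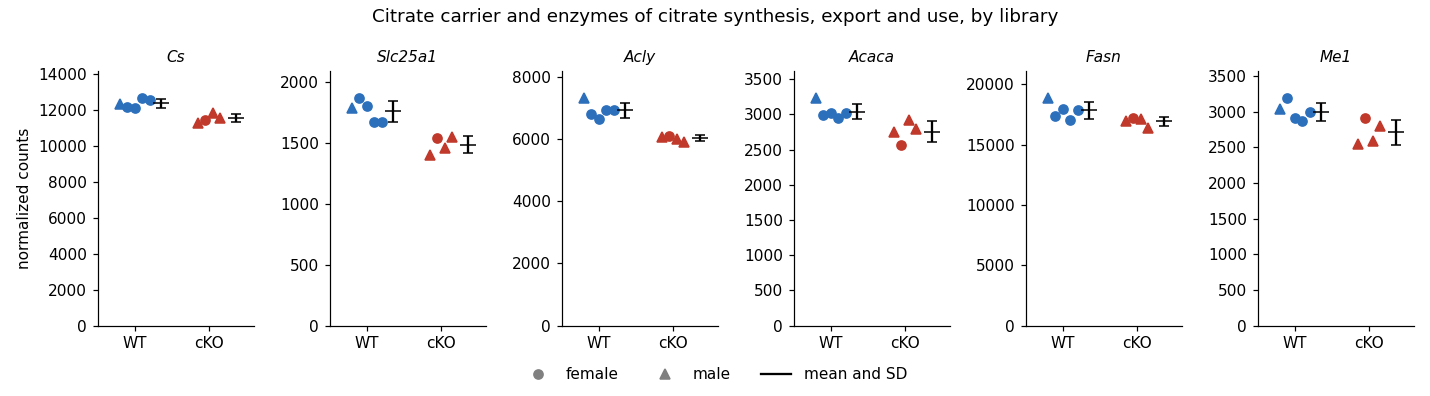
The 6 panels show normalized counts (y axis, from 0) of the citrate carrier Slc25a1 and of 5 enzymes, 1 point per library, with mean and SD. Cs, Slc25a1, Acly and Acaca show no overlap between the 4 cKO and 5 WT libraries; Fasn and Me1 overlap.

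None of the 6 carriers of adenine nucleotides and phosphate passed (median -0.05, 1 above 0 and 5 below). Slc25a4 and Slc25a5 encode the ADP/ATP exchangers ANT1 and ANT2, which deliver ATP to the cytosol, and Slc25a3 the phosphate carrier that feeds ATP synthase. Slc25a4 (ENSMUSG00000031633, chromosome 8, 46659833 to 46664321) was at 21123, 21638, 21184, 20591 and 20349 in WT and 19139, 20957, 20039 and 19303 in cKO. The 3 male cKO libraries lay below every WT library, and the female replicate 2 lay within the WT range. Its log2 fold change was -0.06 ± 0.0422 (limma adjusted p = 0.649) and the interval of the ratio 0.904 to 1.025. Slc25a5 was at 6040.1 ± 112 and 5751 ± 301 (-0.04 ± 0.0426, limma adjusted p = 0.779), with the same 3 males lowest. Processed copies of ANT genes exist in the genome and can share reads. The 1 such row with a symbol of the rule, Slc25a5-ps, was at 0 in every library. Copies under other symbols were not looked for, so shared reads were not tested. Slc25a3 was at 11918 ± 216 and 11821 ± 346 (0.01 ± 0.0369, limma adjusted p = 0.923), with a ratio interval of 0.955 to 1.07, among the tightest of the members.

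Slc25a23, Slc25a24 and Slc25a25 encode calcium-dependent exchangers of ATP-magnesium for phosphate, which set the adenine nucleotide pool of the matrix. Slc25a23 was at 13823 ± 150.3 in WT and 13505 ± 371 in cKO (-0.04 ± 0.0375), Slc25a25 at 1565 ± 44.9 and 1488 ± 49.9 (-0.06 ± 0.0487), and Slc25a24 at 166 ± 4.97 and 164 ± 13.8 (-0.10 ± 0.1005), with limma adjusted p of 0.72, 0.677 and 0.75. Slc25a31, the ADP/ATP exchanger known from testis, was under the mean of 10 and not tested. It had 4, 4, 2 and 5 reads in cKO replicates 1 to 4 and 0 in all 5 WT libraries. A count of 0 in 1 library, taken alone, allows up to 3 reads there. These reads are few, the gene was singled out after its values were seen, and no fold is given.

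The 5 carriers of other amino acids and of carnitine did not pass (median -0.0021). Slc25a15, the ornithine carrier of the urea cycle, was at 347, 371, 414, 397 and 377 in WT and 414, 419, 384 and 378 in cKO (0.14 ± 0.0753, limma adjusted p = 0.508). Slc25a20, which exchanges acylcarnitine for carnitine ahead of fatty acid oxidation, was at 637 ± 31.9 and 656 ± 33.3 (0.10 ± 0.0631, limma adjusted p = 0.593). The branched-chain amino acid carrier Slc25a44 was at 3003 ± 96.5 and 3023 ± 103, with a ratio interval of 0.933 to 1.07. The glycine carrier Slc25a38, needed for heme synthesis, and the basic amino acid carrier Slc25a29 had log2 fold changes of -0.09 ± 0.0957 and -0.08 ± 0.1002. Of 5 tested genes of ornithine use and the urea cycle none passed (median 0.03), and of 4 tested genes of the carnitine shuttle none (median 0.02). By smallest p these lists were led by Cps1 (limma adjusted p = 0.68) and Asl (0.752), and by Cpt1a (0.572) and Crat (0.866).

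The 9 carriers of nucleotides and cofactors did not pass (median -0.05), and their log2 fold changes ran from -0.10 to 0.02. Slc25a51, which brings NAD into the matrix, was at 3323, 3224, 3267, 3256 and 3323 in WT and 3140.2, 3056, 3326 and 3289 in cKO (-0.06 ± 0.0404, limma adjusted p = 0.571). The pyrimidine nucleotide carriers Slc25a33 and Slc25a36 were at 731 ± 40.7 and 2377 ± 102 in WT and at 712 ± 47.1 and 2389 ± 73.4 in cKO, with log2 fold changes of 0.02 and 0.01. Further log2 fold changes were -0.10 for Slc25a42 (coenzyme A), -0.06 for Slc25a16, -0.05 for Slc25a17, whose product lies in peroxisomes, -0.05 for Slc25a26 (S-adenosylmethionine) and 0.01 for Slc25a32 (folate or FAD). Gene bodies of 8 members overlap that of another tested gene, so that reads could be shared: beside Slc25a18 these were Slc25a26 (with Lrig1), Slc25a11 (Rnf167), Slc25a23 (Crb3), Slc25a25 (Naif1), Slc25a35 (Rangrf), Slc25a46 (B930094E09Rik) and Slc25a53 (Zcchc18).

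Of the 4 iron and glutathione carriers none passed, and the 2 iron carriers lay on opposite sides of 0. Slc25a28 and Slc25a37 encode mitoferrin-2 and mitoferrin-1, which import iron for heme and iron-sulfur clusters; mitoferrin-1 serves the red cell lineage above all. Slc25a28 (ENSMUSG00000040414, chromosome 19, 43652239 to 43663320) was at 882, 884, 807, 818 and 773 in WT and 1141, 1066, 968 and 937 in cKO. The groups did not overlap, and the cKO values were spread more widely. The log2 fold change was 0.29 ± 0.0782 (limma adjusted p = 0.171, unadjusted p = 0.0024), the largest positive value among the members, and it passed without the sex term (limma adjusted p = 0.0352) and with DESeq2 (adjusted p = 0.0479). Without cKO replicate 2, which leaves 3 cKO males against 1 WT male, it was 0.20 (limma adjusted p = 0.741).

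Slc25a37 was at 449.8, 512, 492, 529 and 545 in WT and 535, 409, 389 and 456 in cKO, where replicates 1 and 4 lay within the WT range (-0.17 ± 0.109, limma adjusted p = 0.593). Per 100 normalized counts of Slc25a37, Slc25a28 was at 166 ± 20.4 in WT (SD, n = 5, 142 to 196) and 232 ± 26.8 in cKO (SD, n = 4, 205 to 261), a ratio that did not overlap. Slc25a28 alone already separated the groups, and the ratio has no term for sex. Such ratios overlapped for Slc25a4 to Slc25a5, Slc25a12 to Slc25a13, Slc25a33 to Slc25a36, Slc25a39 to Slc25a40, Slc25a23 to Slc25a25 and Slc25a14 to Slc25a27. The 6 blood cell genes, globins among them, had summed levels of 1739 to 2379 in cKO and 2070.3 to 3442 in WT, none passed and none was at 0, and their part in the value of Slc25a37 was not tested. The glutathione carriers Slc25a39 and Slc25a40 had log2 fold changes of -0.03 ± 0.0531 and -0.01 ± 0.0810. Of 9 heme and iron-sulfur genes none passed (median -0.03); the smallest p was that of the erythroid heme enzyme gene Alas2, at 142 ± 19.99 in WT and 102 ± 24.4 in cKO (limma adjusted p = 0.54).

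All 3 relatives of the uncoupling proteins had log2 fold changes above 0, beside 8321 of 17036 genes tested, and none passed (median 0.09). Slc25a27 and Slc25a14 encode UCP4 and UCP5, known from neurons. Slc25a27 was at 1023, 945, 902, 1020.1 and 883 in WT and 1095, 1027, 1052 and 1037 in cKO, so that the groups did not overlap, and its log2 fold change with sex as a term was 0.09 ± 0.0611 (limma adjusted p = 0.589). The male WT library was the highest of its group and the 3 male cKO libraries were above the female one. Slc25a14 was at 765 ± 25.0 and 799 ± 21.1 (0.07 ± 0.0569), and Slc25a30 at 339 ± 22.3 and 372 ± 25.4 (0.10 ± 0.0865). Of 4 tested family members with other symbols none passed: Ucp2 was at 761 ± 77.1 in WT and 681 ± 33.8 in cKO (limma adjusted p = 0.593), Ucp3 at 24.6 ± 5.51 and 18.6 ± 3.37 (0.45), and the log2 fold changes of Mtch1 and Mtch2 were -0.02 and 0.03.

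Slc25a46, a member of the outer membrane tied to mitochondrial fission and lipid exchange, was at 3494 ± 93.9 in WT and 3367 ± 77.1 in cKO (-0.04 ± 0.0416). The 5 members with no settled substrate did not pass, with log2 fold changes of -0.18 for Slc25a45, -0.12 for Slc25a35, -0.08 for Slc25a34, -0.05 for Slc25a47 and 0.03 for Slc25a53. Slc25a34, Slc25a35, Slc25a45 and Slc25a47 were low, and their SEs ran from 0.149 to 0.173. Carriers reach the inner membrane through the TIM22 complex and its small chaperones. Of 12 genes of that import route none passed (median -0.00078), led by Tomm70a (9162 ± 341 in WT and 8573 ± 357 in cKO, limma adjusted p = 0.443) and Timm9 (933 ± 38.4 and 1001 ± 55.3, 0.445). Neither subunit of the pyruvate carrier passed, with log2 fold changes of -0.05 for Mpc1 and 0.04 for Mpc2. None of 6 calcium uniporter genes passed; Micu2, a gatekeeper subunit, was at 910.3 ± 28.0 in WT and 985 ± 36.004 in cKO without overlap (limma adjusted p = 0.407), and Mcub had an adjusted p of 0.675. In the glycerol phosphate shuttle Gpd2 was at 8127 ± 189 and 7353 ± 254, also without overlap (limma adjusted p = 0.186), and Gpd1 at 1219 ± 98.2 and 1176 ± 91.2 (0.812).

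All 5 sideroflexins had log2 fold changes above 0 (median 0.07), beside 8321 of 17036 genes tested, and 1 of them, Sfxn5, rose. Sfxn5 (ENSMUSG00000033720, chromosome 6, 85190030 to 85310404) was at 5239, 5034, 5054, 5040.4 and 5054 normalized counts in WT and at 5909, 6327, 5734 and 5682 in cKO. WT replicates 2 to 5, all female, were nearly equal. The male WT replicate 1 was above them and the female cKO replicate 2 was the highest of all 9. The unadjusted means were 5084 ± 87.1 in WT (SD, n = 5) and 5913 ± 293 in cKO (SD, n = 4). With sex as a term the rise was 1.18-fold (log2 fold change 0.24 ± 0.0438, SE, limma adjusted p = 0.0414). The 95% interval of that ratio was 1.10 to 1.26. Without cKO replicate 2, which leaves 3 cKO males against the single WT male, the log2 fold change was 0.14 (limma adjusted p = 0.531). The call was also lost without cKO replicate 1 or 3 or WT replicate 2, 3, 4 or 5 (0.23 to 0.24, limma adjusted p = 0.0571 to 0.0945).

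Sfxn1 and Sfxn3, the serine carriers that supply mitochondrial one-carbon metabolism, were at 2708 ± 91.4 and 3602 ± 93.8 in WT and at 2743 ± 84.0 and 3713 ± 215 in cKO. Their log2 fold changes were 0.02 ± 0.0462 and 0.03 ± 0.0502 (limma adjusted p = 0.928 and 0.862), and the intervals of the ratio 0.943 to 1.08 and 0.947 to 1.10. Sfxn2 was at 294 ± 34.1 in WT and 325 ± 35.8 in cKO (0.07 ± 0.114), and Sfxn4, which takes part in complex I assembly, at 223 ± 17.1 and 248 ± 11.8 (0.14 ± 0.0983, limma adjusted p = 0.622). Sfxn5 made up 42.7% ± 0.437 of the normalized counts of the 5 sideroflexins in WT (SD, n = 5, 42.2 to 43.3) and 45.7% ± 1.08 in cKO (SD, n = 4, 44.8 to 47.1). Sfxn5 alone already separated the groups, and the share has no term for sex. Of 9 mitochondrial serine and folate enzymes none passed, 7 were above 0 (beside 8321 of 17036 genes tested), and the median was 0.11. Shmt2, which splits serine in the matrix, was at 872, 905, 945, 918 and 824 in WT and 1096, 1047, 1083 and 958 in cKO, without overlap (log2 fold change 0.24 ± 0.0668, limma adjusted p = 0.186). Gldc of the glycine cleavage system was at 1147 ± 34.2 and 1267 ± 93.6 (limma adjusted p = 0.327).

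Levels of different members were compared per kb of the APPRIS principal transcript in GENCODE M21, over all 9 libraries. Slc25a4 was highest at 10639 ± 446 normalized counts per kb (SD, n = 9), followed by Slc25a3 at 7367 ± 165, Slc25a5 at 4768 ± 203, Slc25a23 at 4069 ± 89.7 and Slc25a22 at 3289 ± 129. The libraries of these 5 did not overlap with each other in level, so their order was the same in all 9. Sfxn5 (1491 ± 130.2), Slc25a11 (1427 ± 81.5) and Sfxn3 (1274 ± 55.3) came next, each overlapping its neighbour. Slc25a39 (1011 ± 45.3), Slc25a1 (985 ± 97.4) and Sfxn1 (979 ± 30.4) were likewise not separated. Slc25a18 stood at 563 ± 100.2, rank 18 of 45, and Slc25a13, at 16.5 ± 4.62, was the lowest, far under its relative Slc25a12 at 913 ± 28.4. With the union of all annotated exons as the length, the ranks of Slc25a4, Slc25a5, Slc25a23, Slc25a3 and Slc25a22 were 1 to 5 in that order, and Sfxn5 moved from rank 6 to 14.

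**Figure D4:**
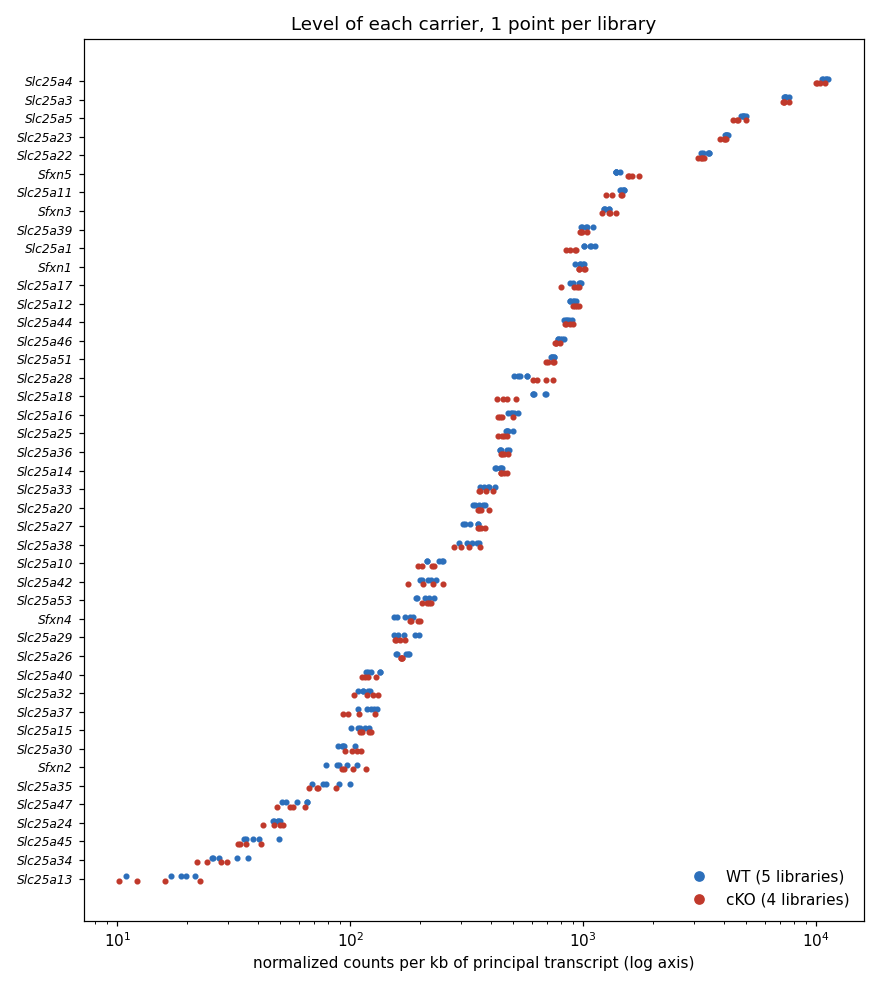
Each row is 1 of 44 members and each point 1 library (5 WT, 4 cKO), with normalized counts per kb of principal transcript on a log axis. The members span from 16.5 for Slc25a13 to 10639 for Slc25a4, and the spread between libraries is small beside the distance between most members.

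The spread between replicates, as the within-group SD on the log2 scale, was smallest for Slc25a23 (0.0288), Slc25a3 (0.0336) and Slc25a46 (0.0362) and largest for Slc25a13 (0.432), Slc25a34 (0.210) and Slc25a35 (0.189). The median over the members was 0.0790, beside 0.0944 over protein-coding genes and 0.107 over all genes tested. For Slc25a18 and Slc25a28 it was 0.106 and 0.106, and for Sfxn5 0.0496.

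**Figure D5:**
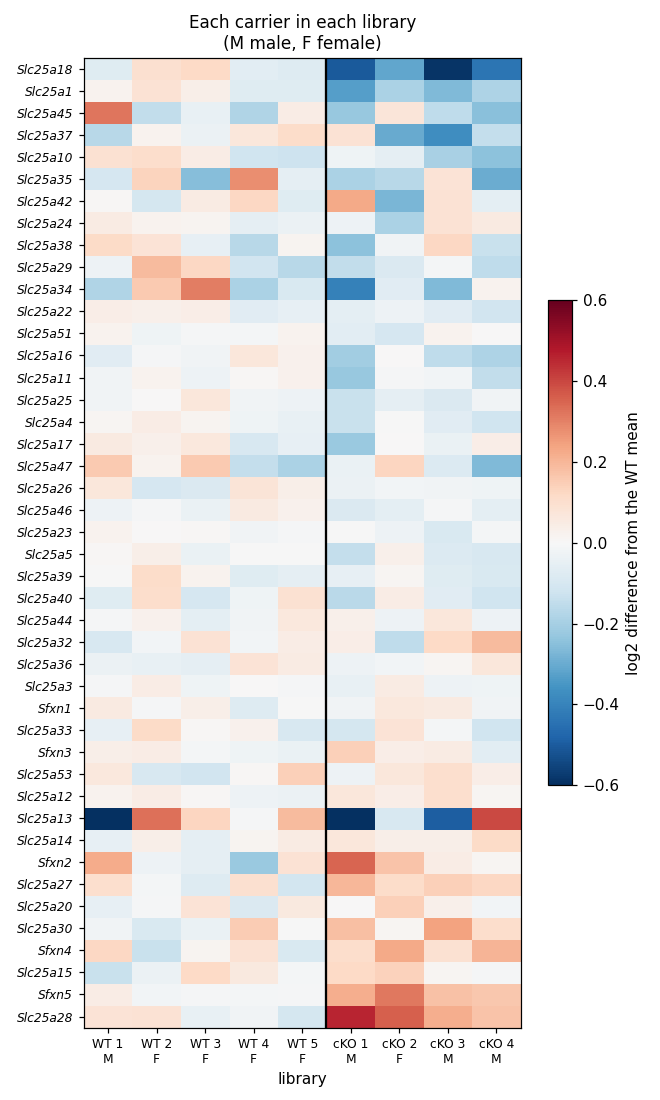
Colour gives the log2 difference of 44 members (rows, ordered by log2 fold change) in each library (column) from the mean of the 5 WT libraries. Slc25a18 and Slc25a1 are blue and Slc25a28 and Sfxn5 red in all 4 cKO libraries; most rows between do not split by genotype. Values past either end of the scale, as for Slc25a13, have the end colour.

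Across the members, the median absolute log2 difference from the WT mean was 0.0426 to 0.0644 in the WT libraries, which enter that mean, and 0.1205, 0.0617, 0.0801 and 0.105 in cKO replicates 1 to 4. Of the other cell types, the 9 meningeal and fibroblast markers had summed levels of 7850.4 to 9609 in cKO and 5582 to 9272 in WT (0 passed, 8 above 0), the 6 microglia markers 7923 to 8905 in cKO and 9086 to 9766 in WT (0 passed) and the 5 oligodendrocyte precursor markers 16903 to 17548 in cKO and 18373 to 19617 in WT (0 passed). The 8 neuron markers were at 198220.0 to 203061 in cKO and 210293 to 215813 in WT (0 passed), the 6 oligodendrocyte markers at 20969 to 32164 in cKO and 20697 to 30894 in WT (0 passed), the 8 endothelial markers at 7175 to 7933 in cKO and 8036 to 8949 in WT (Flt1 fell), the 6 mural markers at 8709.6 to 10325 in cKO and 10396 to 11596 in WT (0 passed) and the 5 choroid plexus markers at 549.6 to 32774 in cKO and 580.4 to 43385 in WT (0 passed). No marker was at 0 in all libraries. The neuron, precursor, endothelial, mural and microglia sums did not overlap between the groups and were lower in cKO, and their part in the members' values was not tested. With the mean of the meningeal markers as a covariate Slc25a18 was at -0.43 and Sfxn5 at 0.26, and neither passed (limma adjusted p = 0.181 and 0.25).

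The same model compared the sexes, a contrast in which the 3 members on chromosome X are of interest. No member passed (0 of 45, beside 0.0528% of all genes, 0.0176% higher in females and 0.0352% higher in males), also with edgeR and DESeq2, and 2 had an unadjusted p under 0.05, where 6.73% of all genes did. These were Slc25a16 and Slc25a18, with log2 differences (female against male) of 0.13 ± 0.0476 and 0.14 ± 0.0664 and limma adjusted p of 0.7 and 0.74. Slc25a5 was at 6062 ± 128 in females (SD, n = 5) and 5724 ± 251 in males (SD, n = 4), a difference of 0.06 ± 0.0426 (limma adjusted p = 0.794). For Slc25a14 and Slc25a53, also on chromosome X, the differences were 0.01 ± 0.0569 and -0.03 ± 0.0779 (limma adjusted p = 0.976 and 0.96).

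Whether the genotype difference itself differed between the sexes was tested by the interaction, which rests on 1 cKO female and 1 WT male. No member passed (0 of 45, beside 0.00587% of all genes, all of it in the positive direction and 0% in the negative), also with edgeR and DESeq2, and 3 had an unadjusted p under 0.05, against 7.9% of all genes. These were Slc25a32 (interaction -0.39 on the log2 scale, limma adjusted p = 0.57), Sfxn5 (0.19, limma adjusted p = 0.598) and Slc25a45 (0.68, limma adjusted p = 0.605). Within females the log2 fold change of Sfxn5 was 0.33 and within males 0.14; for Slc25a18 they were -0.33 and -0.44, for Slc25a1 -0.18 and -0.28, and for Slc25a28 0.38 and 0.20. Each within-sex value has 1 library in an arm, a cKO female or a WT male, and is given as a description only. The fits without WT replicate 1 and without cKO replicate 2 give the same values. Any adjusted p printed for those 2 fits carries the same limit.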

How the data were processed

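Per the labels' protocols, total RNA of hippocampus was made into directional libraries at 1 time. The tools named per the submitters' processing notes are STAR 2.7.10b, cutadapt 4.4, FastQC 0.12.1 and DESeq2 1.41.8, with GRCm39 as the build; the counter, gene annotation and strand option are unstated in the sources used here. The deposited table gives a signal per gene and library, counts divided by a size factor, which compares libraries but not genes of unequal length. Reads recovered by dividing by each library's step (0.943 to 1.08) were whole within 0.1 read for 100.0% of values; in cKO replicate 1 and WT replicates 1 and 4 the step is so near 1 that low values hardly show it.

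limma-trend (limma 3.58.1, R 4.3.3) was fitted to log2(normalized count + 1) with sex and genotype over 17036 genes with a mean of at least 10, with Benjamini-Hochberg adjustment over all of them; fold changes are on that scale. edgeR 4.0.16 (quasi-likelihood) and DESeq2 1.42.0 on recovered reads were alternatives; edgeR called 57 genes. Python 3.11.15, pandas 2.3.3, numpy 2.4.6, scipy 1.17.1 and matplotlib 3.10.9 were used. The fit was run on simulated counts with 50 genes changed at each of 4 sizes, drawn at random from all genes tested. No sex difference was simulated. The fit called 6% of those changed 1.15-fold, 44% at 1.25-fold, 62% at 1.50-fold and 76% at 2-fold. Of its 103 calls, 9 were false. Small changes were thus often missed. The median SE was 0.0659 for the members and 0.0815 for all genes tested, so the shares called are not the members' own. Members, role groups, gene lists (142 symbols, all matched) and the naming rule (passing members, the 6 of smallest p per direction, relatives, members on X, extremes of spread, and list genes that pass or have the smallest p) were chosen with earlier results of these data known. Replicates are numbered in record order. Litters are not named in the labels, so a p-value here reflects only how these animals vary. The principal-transcript lengths, the motifs, the promoters printed, the ratios of relatives and the remark on Slc25a31 were chosen after values were seen. Single values of 1 member and 2 list genes are not reported here; they remain in the counts and medians.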

Additional observations from a re-analysis of the deposited data

Results flagged for a closer look

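Sfxn5 in WT replicate 1, the only male of that group, was at 5239 normalized counts, far from the other 4 WT libraries at 5034 to 5054. This was the 1 group of 90 (45 members in 2 genotypes) in which 1 library lay apart from the rest by Dixon's test at the 95% level; chance flags about 1 group in 20. Without that library the sex term leaves 1 cKO female, the highest of the 9 libraries, against 4 WT females. The log2 fold change of Sfxn5 was then 0.33, against 0.24 with WT replicate 1.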

How the results depend on the processing

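The number of passing members, 2, was 4 with DESeq2 or with sex left out of the model, 1 with no filter on low values, and 0 with the meningeal covariate, in females only, in males only, and without WT replicates 2 and 5; leaving out 1 library gave 0 to 2. The number of all genes passing, 59, was 199 with DESeq2, 216 with sex left out, 9 with the meningeal covariate, 11 in females only, 3 in males only and 15 without WT replicates 2 and 5; leaving out 1 library gave 10 to 65. WT replicates 2 and 5 had the lowest Slc38a3 in WT, at 2033 and 1804 normalized counts, against 3363 to 3514 in the other WT libraries. The fits in 1 sex, without WT replicate 1 and without cKO replicate 2 have 1 library in an arm, assumed to vary like the others. Fewer libraries or more terms leave fewer degrees of freedom in those fits; otherwise the cause was not tested. Slc25a18 passed in 14 of 22 alternatives, with log2 fold changes of -0.46 to -0.33, and Sfxn5 in 10 of 22, with 0.14 to 0.33. Acly passed in 10 of 22 and Acaca in 6 of 22. Slc25a1 and Slc25a28 passed in 2 of 22 each and kept their direction in all. Under TMM scaling the median of all genes moved from -0.00342 to 0.00150. No member passed for sex or the interaction in any alternative run; the interaction could not be fitted without WT replicate 1 or cKO replicate 2. No paired analysis was possible because replicate numbers follow record order and tie no samples together. Depth limits the members of low counts, such as Slc25a13.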

Other observations

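The carriers under the mean of 10 were not tested and are given as reads per library in replicate order. Slc25a21, the oxodicarboxylate carrier, had 16, 14, 9 and 11 reads in cKO and 3, 9, 12, 5 and 7 in WT, with overlap between the groups. Slc25a2, a second ornithine carrier, had 4, 2, 4 and 6 reads in cKO and 4, 3, 8, 1 and 2 in WT. Slc25a43, on chromosome X, had 1, 2, 8 and 5 reads in cKO and 1, 4, 3, 1 and 4 in WT. Slc25a48 had 10 reads over the 4 cKO and 15 over the 5 WT libraries, Slc25a41 had 5 and 4, and Slc25a54 had 0 in all 9. Each count of 0, taken alone, allows up to 3 reads in its library. Slc25a31 had 15 reads over the cKO libraries and 0 over the WT libraries.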
